A study of Mus musculus with 12 samples.

Results

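The stearoyl-CoA desaturase genes Scd1 and Scd2 were examined in the small intestine of mice on high-fat diets that differ in fat composition. Members were taken as genes named alone by an array probe set, and Scd1 (probe set 10467979) and Scd2 (probe set 10463355) were found as 2 of 19937 genes, each with 1 probe set. The array has 4 probe sets that name an Scd gene, of which the others belong to Scd3 (10463347) and Scd4 (10463361), and 0 name an Scd gene together with another gene. The study hybridised total RNA from 12 wildtype male FVB mice, labelled as aged 8 weeks, to Affymetrix whole-transcript arrays. Of these, 6 mice had received for 8 weeks a diet poor in polyunsaturated relative to saturated fatty acids (low P/S) and 6 a control high-fat diet (control). The series title places the comparison in work on cholesterol excretion through the intestinal wall. The design text calls the 6 animals of each diet biological replicates. The exact fats of either diet, the segment of small intestine and the times of feeding and dissection are not given in the labels.

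Stearoyl-CoA desaturases sit in the membrane of the endoplasmic reticulum and put a double bond into palmitoyl-CoA and stearoyl-CoA, which gives palmitoleoyl-CoA and oleoyl-CoA. Electrons for the reaction come from NADH through cytochrome b5 reductase and cytochrome b5. In mice, Scd genes are known to be induced by sterol regulatory element binding proteins and the liver X receptor and repressed by dietary polyunsaturated fatty acids. Their products are used in triglycerides, phospholipids and cholesterol esters. In the RefSeq annotation of the GRCm38.p6 assembly the family lies together on chromosome 19, in the order Scd3, Scd2, Scd4 and Scd1.

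Values are the deposited linear intensities, and how the authors summarized them is not stated in the sources used here. Array medians ranged from 91.9 to 99.5. Each difference is a log2 value for low P/S minus one for control, ± gives its limma standard error (6 arrays in each diet), and adjusted p is the Benjamini-Hochberg value over the 11962 genes tested, with 0.05 as the threshold. In this comparison 25.7% of genes passed, 17.8% as higher and 7.87% as lower, so 2132 rose and 942 fell. With quantile normalization 1775 were higher and 1543 lower. The enterocyte fatty acid binding protein gene Fabp2 averaged 9724 in low P/S arrays and 9793 in control arrays, and all 14 enterocyte markers were bright enough to be tested. Of these 14, 6 fell and 1 rose, with a median difference of -0.17, led by the lactase gene Lct (-0.95) and the aminopeptidase gene Anpep (-0.63).

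Scd2 and Scd1 had more transcript in every low P/S array than in any control array. Scd2 was 14.8-fold higher and Scd1 5.44-fold higher, while the probe sets of Scd3 and Scd4 stayed among the dim ones on both diets.

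Scd1 is the main isoform of mouse liver and adipose tissue. In low P/S arrays its lowest, median and highest intensities were 9438, 10372 and 12359. In control arrays they were 592, 2492 and 3879, with medians taken on the log2 scale. The lowest low P/S array was thus 2.43-fold above the highest control array, and the groups did not overlap, which held in this direction for 6.86% of tested genes. The log2 difference was 2.44 ± 0.33 (adjusted p = 0.000105), which corresponds to a 95% interval of 3.35-fold to 8.83-fold. With an ordinary variance per gene the standard error was larger, at 0.42 (adjusted p = 0.00486).

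Scd2 is known in mice from brain and from the skin and liver of newborns. Its lowest, median and highest intensities were 2998, 3837 and 5279 in low P/S arrays. In control arrays they were 186, 256 and 419.8. Here the gap between the groups was wider, with the lowest low P/S array 7.14-fold above the highest control array. The log2 difference was 3.88 ± 0.18 (adjusted p = 4.13e-09), with a 95% interval of 11.3-fold to 19.3-fold. Exact two-sided permutation of the arrays gave p = 0.0022 for each gene, the smallest that 6 against 6 arrays can give.

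**Figure D1:**
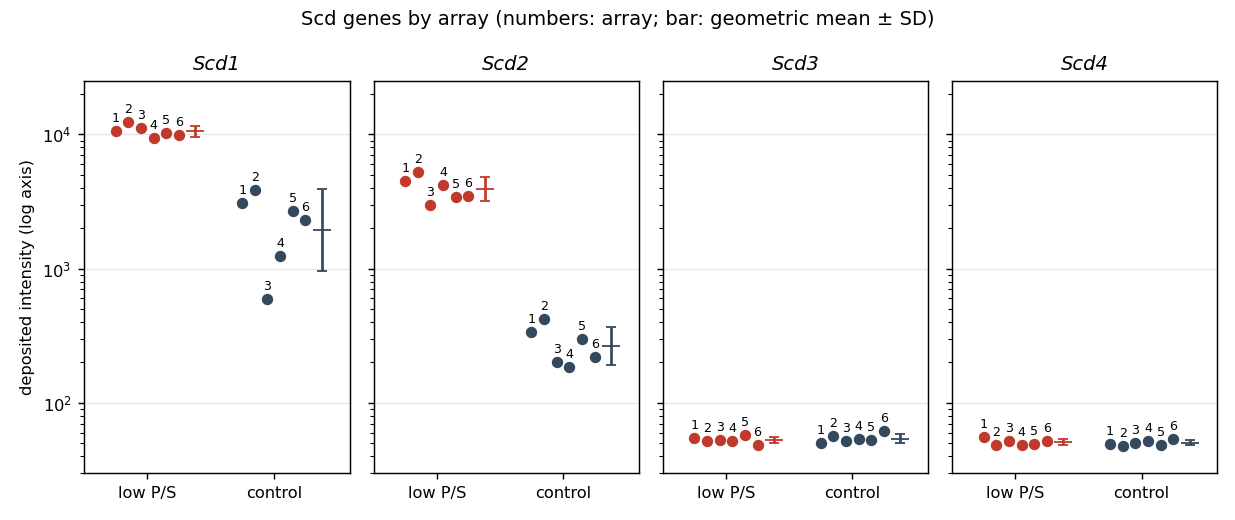
Deposited intensity (log axis) of Scd1, Scd2, Scd3 and Scd4 in low P/S and control arrays, with a point per array, its number above it, and the geometric mean ± SD of the log2 values beside the 6 points. Scd1 and Scd2 separate by diet, control array 3 is the lowest for Scd1 at 592, and Scd3 and Scd4 lie between 47.7 and 61.4 in all 12 arrays.

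The control animals differed among themselves in Scd1 more than the low P/S animals did. The SD of log2 Scd1 was 0.14 in low P/S arrays and 1.01 in control arrays, and the highest array exceeded the lowest 1.31-fold on the low P/S diet and 6.55-fold on the control diet. For Scd2 the SD was 0.30 in low P/S arrays and 0.47 in control arrays. The spreads were not tested against each other, and the limma fit uses 1 spread for both diets. The part of high intensity in the small Scd1 spread of low P/S arrays was not tested either. Control array 3, the lowest for Scd1, also had the lowest summed enterocyte marker intensity of the control arrays, at 85589. Control array 4, the next lowest for Scd1 at 1239, had a sum of 101960, beside a control mean of 97367. Array 3 also had the lowest control sums of the electron chain, other desaturase, substrate supply, product use and regulator lists used below. The part of tissue makeup in its low Scd1 value was not tested.

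Scd3 and Scd4, the other mouse paralogs, did not pass the filter on dim genes, a geometric mean intensity of 85.6. Scd3 ranged from 48.7 to 57.5 in low P/S arrays and from 50.5 to 61.4 in control arrays. Scd4 ranged from 48.4 to 55.3 in low P/S arrays and from 47.7 to 53.7 in control arrays. The groups overlapped for both genes. In a fit over all 34760 probe sets without a filter, where 8.78% passed, the difference was -0.03 ± 0.06 for Scd3 (adjusted p = 0.765) and 0.01 ± 0.05 for Scd4 (adjusted p = 0.878), and the sign of both turned in some alternatives. The 95% intervals of these differences were -0.15 to 0.09 for Scd3 and -0.08 to 0.11 for Scd4. A signal this dim cannot show whether either gene was expressed. Hybridization shared between the paralogs was not tested.

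Scd2 differed more between the diets than Scd1. Within each array the log2 intensity of Scd2 minus that of Scd1 averaged -1.44 ± 0.28 in low P/S arrays and -2.88 ± 0.68 in control arrays (SD, n = 6 each). The offset between the probe sets has no meaning of its own. The change in it was 1.44 (95% interval 0.78 to 2.00, exact permutation p = 0.0065), so the measured fold of Scd2 was 2.72 times that of Scd1. With the replicate number as a block, the exact sign-flip p was 0.0625, where 6 pairs can give 0.0313 at the lowest. Control array 3 was the exception. Its value of -1.57 lay inside the low P/S range of -1.90 to -1.16, whereas the other control arrays lay between -3.38 and -2.74. Scd1 had intensities of 9438 to 12359 in low P/S arrays, where the highest value of the whole table was 20294. Whether signal stays proportional to transcript at such intensities was not tested.

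**Figure D2:**
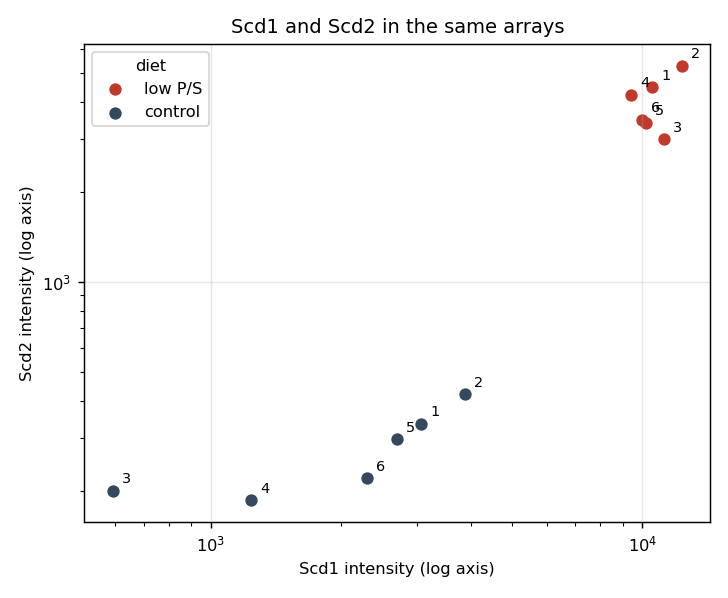
Scd1 intensity (horizontal, log axis) against Scd2 intensity (vertical, log axis) in the same array, with a numbered point per array coloured by diet. Low P/S arrays form a tight group at the upper right, and control arrays spread along the Scd1 axis from 592 to 3879.

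Among the 6 control arrays, those with more Scd1 tended to have more Scd2. Pearson's r was 0.34 in low P/S arrays (exact permutation p = 0.508, adjusted over both diets 0.508) and 0.82 in control arrays (exact permutation p = 0.0375, adjusted 0.075). Spearman's rho was 0.20 in low P/S arrays (exact permutation p = 0.714, adjusted 0.714) and 0.94 in control arrays (exact permutation p = 0.0167, adjusted 0.0333). Without the 2 arrays farthest from the median of Scd1, r was -0.31 in low P/S arrays and 0.98 in control arrays 1, 2, 5 and 6. Without the 2 lowest Scd1 values r thus stayed positive in control arrays. In low P/S arrays, where no relation was shown over all 6, the sign of r turned. These values rest on 4 arrays of each diet and were not tested. With control array 1, 2, 4, 5 or 6 left out, r was between 0.77 and 0.90 and the exact p reached 0.05 or more (highest 0.133). Whether the relation differed between the diets was not tested.

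In the order of differences over all tested genes Scd2 stood at rank 1 and Scd1 at rank 3. The gene between them was Trf (probe set 10596148), which encodes the iron carrier transferrin. Trf ranged from 1874 to 2759 in low P/S arrays and from 191 to 583 in control arrays, a difference of 2.84 ± 0.19. Acot1 (10397148), a cytosolic acyl-CoA thioesterase gene, followed at rank 4. It ranged from 1090 to 1815 in low P/S arrays and from 195 to 574 in control arrays (2.18 ± 0.23). The difference of Scd2 exceeded that of Trf by 1.05 (95% interval 0.51 to 1.60 by inverting the exact permutation test). Scd1 did not separate from its neighbours, with an interval of -1.11 to 0.38 against Trf and of -0.47 to 1.09 against Acot1. These neighbours were picked by the order itself, and the intervals are given as a description.

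The genes of the electron chain that serves the desaturases did not pass between the diets. Of 7 genes of cytochrome b5 and its reductases, 5 were bright enough to be tested and 0 passed in limma, while 2 had an unadjusted p under 0.05 and 0 passed with an ordinary variance per gene. Of all genes tested 25.7% passed. The median difference of the 5 was -0.03, beside 0.02 over all genes tested. Cyb5a, which encodes the microsomal cytochrome b5, ranged from 2138 to 2428 in low P/S arrays and from 2150 to 2750 in control arrays (-0.12 ± 0.06, 95% interval -0.24 to 0.01, adjusted p = 0.157). Its mitochondrial outer membrane relative Cyb5b had a difference of -0.03 ± 0.07 (95% interval -0.18 to 0.13), whose sign turned to 0.02 without control array 5.

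The reductase gene Cyb5r3 had a difference of -0.18 ± 0.08 (adjusted p = 0.0944), with 1448 to 1949 in low P/S arrays and 1644 to 2164 in control arrays. It passed as lower when control array 2 was left out (adjusted p = 0.0387) and likewise for low P/S array 2 (adjusted p = 0.0401). With quantile normalization Cyb5r3 (-0.28) and Cyb5a (-0.19) both passed as lower, so 2 of 5 did. The reductase relatives Cyb5r1 (0.13 ± 0.06) and Cyb5r4 (0.09 ± 0.06) did not pass, and Cyb5r2 and Cyb5rl were too dim to test. The groups overlapped for all 5 tested genes, as for most genes of the table, of which 6.86% separated as higher and 3.90% as lower.

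Among 6 other desaturase genes 3 rose, 1 fell and 2 did not pass, with a median difference of 0.14. Of all tested genes 17.8% rose and 7.87% fell. Fads1 and Fads2 encode the front-end desaturases of polyunsaturated fatty acid synthesis. Fads2 ranged from 914 to 1285 in low P/S arrays and from 342 to 479 in control arrays (1.35 ± 0.09, adjusted p = 2.43e-07). Fads1 ranged from 256 to 308 in low P/S arrays and from 173 to 197 in control arrays (0.56 ± 0.05). Their relative Fads3 was higher by 0.25 ± 0.07 (adjusted p = 0.0161), which no longer passed once control arrays 1 and 2 were left out (adjusted p = 0.0610).

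Of the desaturases that act on dihydroceramide in place of acyl-CoA, Degs1 fell. This gene, whose enzyme makes ceramide from dihydroceramide, was 1.25-fold lower, at 412 to 463 in low P/S arrays and 512 to 585 in control arrays (-0.32 ± 0.05, adjusted p = 0.000235). Degs2, whose enzyme also makes phytoceramide, had a difference of -0.03 ± 0.06 (adjusted p = 0.711). Fads6 differed by 0.03 ± 0.05 (adjusted p = 0.745), and the sign turned without control arrays 1 and 2. Degs1 was the member of this list whose groups did not overlap in the downward direction, which held for 3.90% of tested genes.

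Genes that supply and activate the saturated acyl-CoA substrates were mostly higher on the low P/S diet. Of 16 listed genes 14 were found and 13 tested, of which 10 rose, 0 fell in limma (0 lower at an unadjusted p under 0.05 and 0 with an ordinary variance per gene) and 3 did not pass, with a median difference of 0.61 beside 0.02 over all genes. The share that rose was 17.8% over all tested genes. With an ordinary variance per gene 9 of the 13 passed, and 2457 of all tested genes in either direction. In 8 of the 13 every low P/S array exceeded every control array, beside 6.86% of all tested genes. Me1, a malic enzyme that supplies NADPH, had 3215 to 4015 in low P/S arrays and 1185 to 2305 in control arrays (1.17 ± 0.13, adjusted p = 2.12e-05). The acetyl-CoA carboxylase genes Acacb (0.94 ± 0.11) and Acaca (0.69 ± 0.09) and the elongation cycle reductase gene Tecr (0.49 ± 0.06) completed the 4 members of smallest p. The fatty acid synthase gene Fasn and the elongase gene Elovl6, whose products include the palmitoyl and stearoyl chains used by these enzymes, were chosen after their values were seen. Fasn had 304 to 571 in low P/S arrays and 175 to 342 in control arrays (0.80 ± 0.18, adjusted p = 0.00377), and Elovl6 rose 1.53-fold (0.61 ± 0.09, adjusted p = 0.000163).

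Genes that use the desaturated acyl-CoA in glycerolipids and lipid droplets were divided. Of 14 tested, 8 rose, 1 fell and 5 did not pass, with a median difference of 0.36. The shares over all tested genes were 17.8% higher and 7.87% lower. Gpam, which starts glycerolipid synthesis, had 402 to 828 in low P/S arrays and 178 to 238 in control arrays (1.50 ± 0.16, adjusted p = 1.71e-05). The lipid droplet coat gene Plin2 (1.38 ± 0.17), the acyltransferase gene Agpat2 (0.72 ± 0.12) and the lipid droplet gene Fitm2 (0.40 ± 0.07) also rose. The member that fell was Dgat2, a diacylglycerol acyltransferase gene chosen after its value was seen, which was 1.30-fold lower (-0.38 ± 0.10, adjusted p = 0.00981). Its unrelated counterpart Dgat1 had a difference of -0.10 ± 0.06 (adjusted p = 0.202).

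Of 21 tested regulators of lipid synthesis 9 rose, 0 fell and 12 did not pass in limma, with a median difference of 0.12. Among all tested genes 17.8% rose and 7.87% fell. At an unadjusted p under 0.05, 2 were lower. With an ordinary variance per gene 6 passed and 0 fell, while 2457 of all tested genes passed in either direction. Insig1, which retains the sterol regulatory precursor in the endoplasmic reticulum, had 2988 to 5504 in low P/S arrays and 901 to 2070 in control arrays (1.47 ± 0.20, adjusted p = 9.32e-05). Srebf1, a direct activator of Scd transcription, had 795 to 1543 in low P/S arrays and 612 to 959 in control arrays (0.56 ± 0.15, adjusted p = 0.0110), so its groups overlapped, and an ordinary variance per gene ended the call (adjusted p = 0.0520). Srebf2, the related factor of cholesterol synthesis, had 556 to 697 in low P/S arrays and 403 to 519.5 in control arrays (0.35 ± 0.07, adjusted p = 0.00162). The liver X receptor alpha gene Nr1h3 rose 1.20-fold (0.26 ± 0.07, adjusted p = 0.0159), and the beta form Nr1h2 was not analysed here.

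The coactivator gene Ppargc1b (0.35 ± 0.06, adjusted p = 0.00109) and the protease gene Mbtps1 (0.42 ± 0.09, adjusted p = 0.00407), which cuts the sterol regulatory precursor, rose too. Scap, the escort of that precursor, had a difference of 0.04 ± 0.05 (adjusted p = 0.529), and quantile normalization turned the sign to -0.0084. Ppara and Ppard, receptors for fatty acids that were chosen after their values were seen, had differences of -0.21 (adjusted p = 0.0550) and -0.19 (adjusted p = 0.0601). Ppara passed as lower when control array 2 (adjusted p = 0.0254), low P/S array 2 (0.0458) or low P/S array 6 (0.0130) was left out. Ppard did so when control array 1 (adjusted p = 0.0409), control array 2 (0.0211) or low P/S array 6 (0.0250) was left out. With quantile normalization Ppara, Ppard and Rxra passed as lower, which gave 3.

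**Figure D3:**
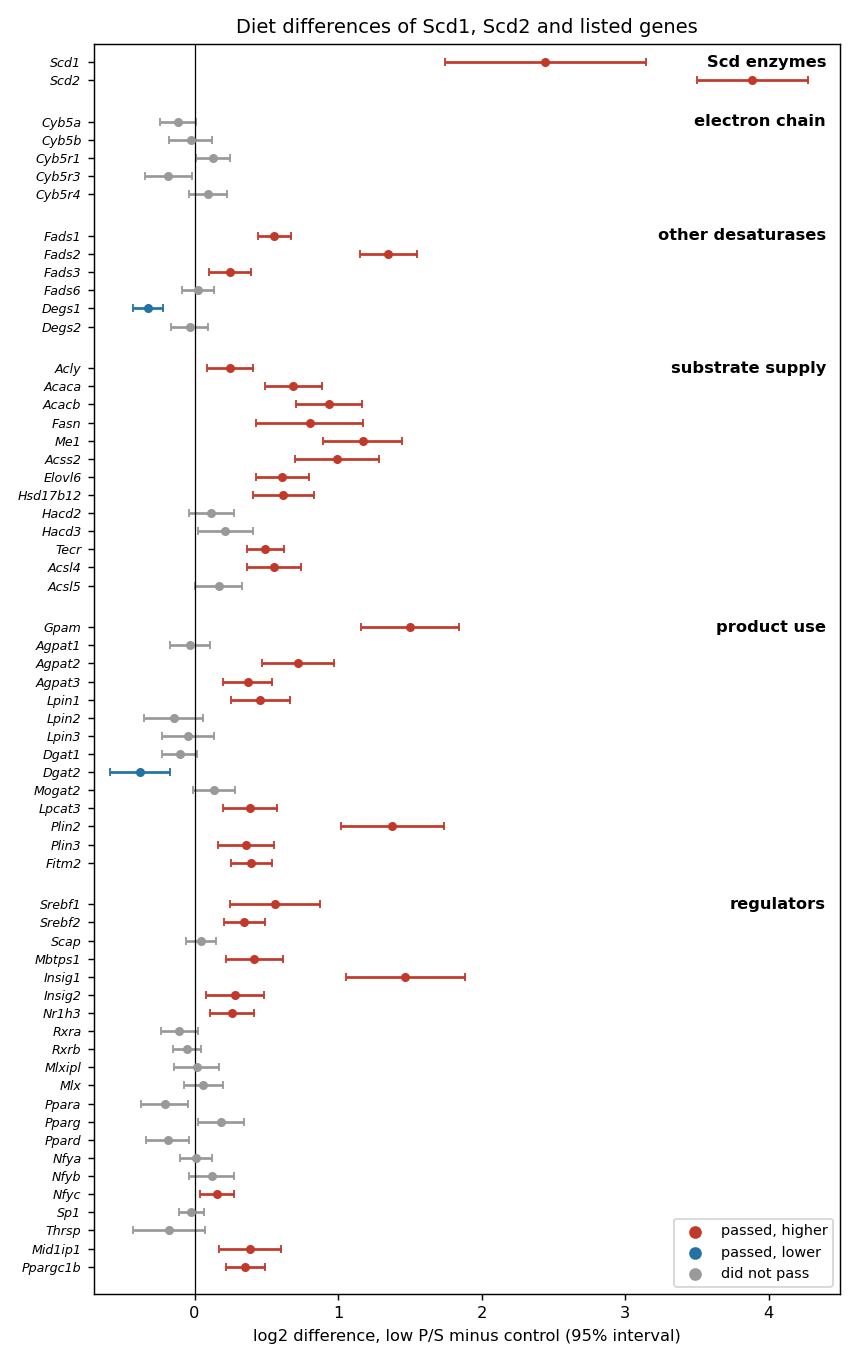
Log2 difference, low P/S minus control, of Scd1, Scd2 and the tested genes of 5 lists (rows), with bars for the 95% interval of each gene before adjustment and colours for the call at an adjusted p of 0.05. Scd2 at 3.88 and Scd1 at 2.44 lie to the right of all listed genes, and Degs1 and Dgat2 passed as lower. The electron chain genes lie on both sides of 0 and did not pass, though the bars of Cyb5r1 (0.01 to 0.25) and Cyb5r3 (-0.35 to -0.02) do not reach 0.

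To find genes whose array-to-array pattern is like that of Scd1 or Scd2 apart from the diet, each gene's deviations from its diet means were correlated over the 12 arrays, as a description without a p. These values share the arrays and their scaling. Scd1 and Scd2 themselves had r = 0.71, which placed Scd2 at rank 120 of 11961 genes for Scd1 and Scd1 at rank 805 for Scd2. Over all genes the median r was 0.07 with Scd1 and 0.16 with Scd2, and 22.7% of genes had an r above 0.5 with Scd2, against 7.61% with Scd1.

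The genes most like Scd2 were Sec16b (r = 0.98), which organises export sites of the endoplasmic reticulum, the transcription cofactor gene Trim24 (0.97), Fam83b (0.96), the farnesyl pyrophosphate synthase gene Fdps (0.95) and the splicing factor kinase gene Srpk1 (0.95). Their r lay between 0.92 and 0.99 over the 6 low P/S arrays and between 0.93 and 0.99 over the 6 control arrays. Without control array 3 these genes held ranks 1 to 5. The genes were picked on these same arrays, so such values follow in part from the choice and are no separate support.

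Their diet differences ran from -0.26 to 1.02, beside 3.88 for Scd2. Fdps rose, with 474 to 730 in low P/S arrays and 227 to 351 in control arrays (1.02 ± 0.12, adjusted p = 2.52e-05), and Srpk1 rose by less (0.32 ± 0.09, adjusted p = 0.0144). Sec16b had 988 to 1412 in low P/S arrays and 861 to 1260 in control arrays (0.23 ± 0.10, adjusted p = 0.109), and it passed without control array 2 (adjusted p = 0.0325). Trim24 had a difference of 0.13 ± 0.06 (adjusted p = 0.155) and passed without control array 2 (adjusted p = 0.0387). Fam83b was lower on the low P/S diet, with 959 to 1201 in low P/S arrays and 1123 to 1557 in control arrays (-0.26 ± 0.09, adjusted p = 0.0347). Leaving out any of control arrays 1, 2 and 5 and of low P/S arrays 3, 5 and 6 ended that call (highest adjusted p = 0.0719). So did median centring (adjusted p = 0.0875), an ordinary variance per gene (0.0855) and leaving out control arrays 1 and 2 together (0.140).

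The genes most like Scd1 were Tm4sf4 (r = 0.93), a tetraspan membrane protein gene, the phosphatidate phosphatase gene Lpin2 (0.88), the pantothenate kinase gene Pank3 (0.87), the centromere protein gene Cenpb (0.86) and the heme and choline transporter gene Flvcr1 (0.85). Several of these values rested on control array 3. Without it r was 0.83 for Tm4sf4 and 0.80 for Lpin2, but 0.71 for Flvcr1, 0.58 for Pank3 and 0.48 for Cenpb, which moved to rank 777.

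Tm4sf4 was the member of this group that passed between the diets, with 8332 to 9131 in low P/S arrays and 4834 to 8520 in control arrays (0.39 ± 0.10, adjusted p = 0.0115). Its SD of log2 values was 0.05 among low P/S arrays and 0.29 among control arrays. Every gene of this group had the larger SD in control arrays, as Scd1 did. The group was picked by likeness to Scd1, so this is no separate result. Lpin2 had a difference of -0.14 ± 0.10 (adjusted p = 0.288), and it passed as lower with quantile normalization (-0.23). The differences of Pank3 (0.16 ± 0.08), Cenpb (0.06 ± 0.05) and Flvcr1 (-0.02 ± 0.10) did not pass, and the signs of Cenpb and Flvcr1 turned in some alternatives.

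**Figure D4:**
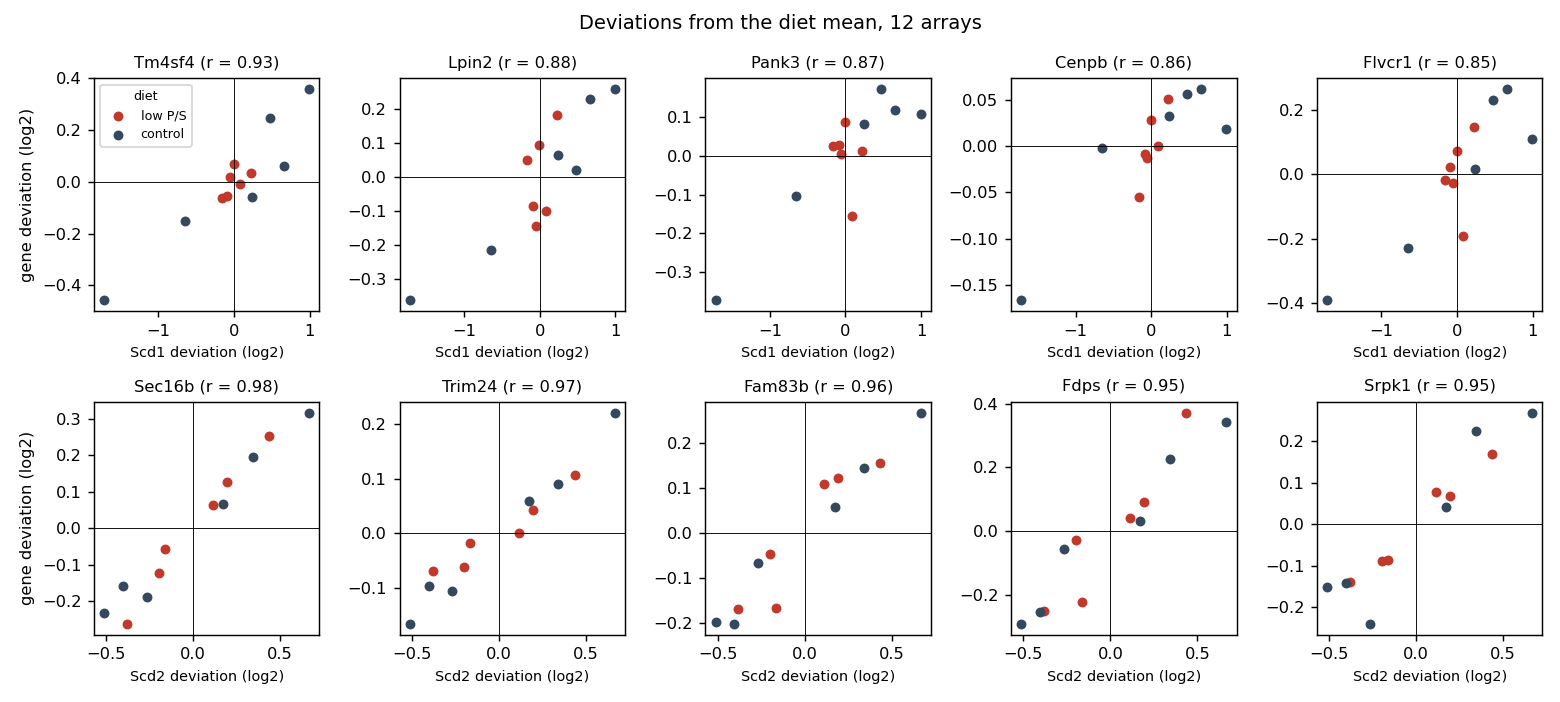
Deviation of log2 intensity from the diet mean for the 5 genes most like Scd1 (upper row) and the 5 most like Scd2 (lower row), against the deviation of Scd1 or Scd2 (horizontal), with a point per array coloured by diet and r over 12 arrays above each panel. For Scd2 the deviations rise together on both diets, with slopes not compared, while for Scd1 control array 3 stands alone at the lower left.

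Scd1 and Scd2 are also transcribed outside enterocytes, and in whole intestine fewer cells of a type and less RNA per cell cannot be told apart. Of 7 tested adipose markers 0 passed in limma (3 with an unadjusted p under 0.05, 0 with an ordinary variance per gene), and the summed intensity of the 11 found was 1270 to 2678 in low P/S arrays and 1271 to 2957 in control arrays. The adipocyte hormone gene Adipoq averaged 97.3 in low P/S arrays and 134 in control arrays, and the leptin gene Lep was among 4 adipose markers too dim to test. Of 8 tested macrophage markers 7 rose. The summed intensity of the 10 macrophage markers found was 2610 to 3354 in low P/S arrays and 2173 to 2607 in control arrays. The brightest of them, Lyz2, averaged 1457 in low P/S arrays and 1290 in control arrays and did not pass (adjusted p = 0.170). The 14 enterocyte markers had sums of 79947 to 93446 in low P/S arrays and 85589 to 113345 in control arrays. Endothelial markers were higher in 3 of 7 cases (1 with an ordinary variance per gene) and lymphoid markers lower in 2 of 4. Over all tested genes 17.8% passed as higher and 7.87% as lower. In smooth muscle 0 of 10 passed (0 with an unadjusted p under 0.05), in enteric neurons and glia 0 of 4 (1 with an unadjusted p under 0.05) and in exocrine pancreas 0 of 3 (1 with an unadjusted p under 0.05), and with an ordinary variance per gene these 3 counts were also 0. The part of these cell types in the Scd1 and Scd2 differences was not tested.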

How the data were processed

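Per the labels, 500 ng of total RNA per animal was labelled with an Affymetrix whole-transcript sense target kit. The deposited values are linear intensity for each probe set on each array, and the authors' summarization, normalization and scan dates are not given in the sources used here. Of 34760 probe sets, 21640 named 1 gene, 1321 several and 11799 none in the platform annotation. The brightest probe set by mean over 12 arrays was used for each of 19937 genes. Log2 values were fitted with limma 3.58.1 in R 4.3.3 (lmFit, eBayes, diet as the only term), after removal of the dimmest genes (mean level under the 40th percentile), which left 11962. The procedure was tested on simulated data. Exact permutation tests enumerated all 924 arrangements of the arrays (Python 3.11.15, NumPy 2.4.6, SciPy 1.17.1). With arrays, their number limits the precision.

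The members, gene lists and tests were chosen with earlier results of these data known. Listed were electron chain, other desaturase, substrate supply, product use and regulator genes, and markers of enterocytes, adipose tissue, enteric neurons and glia, smooth muscle, exocrine pancreas, lymphoid cells, macrophages and endothelium. Named are all electron chain and desaturase genes, 6 fixed regulators, the 4 members of smallest p in the other pathway lists, the 5 genes most like each member and the neighbours in the order of differences, passing over unnamed loci. Other genes named were chosen after their values were seen. Listed genes without a probe set of their own were not analysed here. Alternatives were quantile normalization, median centring, no filter or one at the 60th percentile, averaged probe sets, a pseudocount of 16, array weights, a trended robust prior, ordinary variance, a replicate block and each array left out. Leaving out control arrays 1 and 2 together, the control arrays most like the low P/S arrays in earlier results, was added after seeing the data, as were the likeness values without control array 3 and within each diet.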

Additional observations from a re-analysis of the deposited data

Results flagged for a closer look

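In 84 sets of 6 arrays (42 genes on 2 diets), an array at the edge lay apart from the other 5 by more than Dixon's 95% limit in 5 cases, and chance gives about 1 in 20. The lowest low P/S array for Pank3 was number 3, at 2896 with the next at 3231. The lowest control arrays were number 6 for Cyb5r1 (113, next 126), number 5 for Scap (211, next 224) and number 3 for Cenpb (403, next 452). The highest control array for Acaca was number 2, at 298 with the next at 233. None of the sets for Scd1, Scd2, Scd3 or Scd4 was among them.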

How the results depend on the processing

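Scd1 and Scd2 passed as higher in all 23 alternatives, with differences of 2.10 to 2.86 for Scd1 (highest adjusted p = 0.00486) and 3.78 to 4.14 for Scd2 (highest adjusted p = 0.000111). Averaged probe sets and the filter settings kept the same values of both genes. These alternatives could change only the standard error and the adjusted p. With single arrays left out the ranges were 2.10 to 2.64 and 3.78 to 4.02. The change in Scd2 minus Scd1 was 1.28 to 1.70 over 17 alternatives. Its exact sign-flip p with the replicate number as a block was 0.0625 (difference 1.44), where 6 pairs can give 0.0313 at the lowest. Same-numbered arrays correlated at -0.11 to 0.42 in their deviations, over 0.1 in 3 of 6 pairs. Of the 6 low P/S arrays, 2 correlated best with their own number. The labels link the arrays only by number, and these correlations cannot show whether same-numbered arrays share a batch. The block gave 3530 passing genes against 3074. It changed the count of lower regulators to 2 and called Sec16b (adjusted p = 0.0203), and it changed no call of Scd1 or Scd2. Within-diet r of Scd1 and Scd2 with single arrays left out was -0.53 to 0.71 on the low P/S diet and 0.77 to 0.94 on the control diet. Quantile normalization gave 1543 lower genes over the table, 2 lower electron chain genes, 2 lower product use genes and 3 lower regulators. Lower regulators numbered 1 with array weights, 1 with the 60th percentile filter, 2 without control arrays 1 and 2, and 0 to 2 with single arrays left out. Lower electron chain genes numbered 0 to 1 with single arrays left out. Over the 23 alternatives higher regulators numbered 6 to 10 and higher substrate supply genes 9 to 11. Higher product use genes numbered 7 to 8 and higher desaturases of the other list 2 to 3. Signs turned for differences near 0. Scd3 gave 0.0018 with quantile normalization and -0.057 to 0.0034 with single arrays left out, and Scd4 gave -0.0096 to 0.034 with single arrays left out. Quantile normalization gave -0.0084 for Scap and -0.0089 for Cenpb. Without control arrays 1 and 2, Fads6 was -0.012 and Flvcr1 0.077. Flvcr1 was also 0.013 with array weights, 0.0091 with median centring and -0.095 to 0.036 with single arrays left out, and Cyb5b was -0.082 to 0.024 with single arrays left out. The cause of these changes was not tested. The dim signal of Scd3 and Scd4 limits what can be said of them.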
